A study of Mus musculus with 27 samples.

Results

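Mouse embryonic stem cells (mESCs) that all stood in the same medium, ESLIF, when they were collected were compared by whether they had earlier passed through 2i medium. The cells were chosen by their pre-culture label alone: condition 1 received ESLIF only, and conditions 5 and 6 received a pulse of 2i and were then returned to ESLIF. This gives 6 of the 27 samples of the series and 2086 of its 4147 listed mESCs, with 698 cells from condition 1, 722 from condition 5 and 666 from condition 6. In condition 5 the pulse lasted 48 h and was followed by 48 h in ESLIF, and in condition 6 it lasted 24 h and was followed by 24 h in ESLIF. The length of the pulse and the time since its end therefore changed together and cannot be told apart. The cell line was B6, wild-type mESCs of mixed 129S1/SvImJ and C57BL/6 background, and was the same in every condition. Each condition was 1 culture, sorted from 1 suspension into 2 plates of 384 wells for CEL-seq2, a single-cell RNA sequencing protocol with molecular identifiers. The plates are technical replicates, so the spread between them holds sorting, library and counting error but no culture error, and no p-value is given between conditions. The 6 plates of conditions 2, 3 and 4 stood in 2i at collection (2061 cells). Condition 2 received 2i only, while conditions 3 and 4 received ESLIF and then 2i for the last 48 h or 24 h. These plates serve only to show where values of cultures in 2i lie, and the ranges of the 2i plates below pool these unlike treatments.

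ESLIF medium contains serum and leukaemia inhibitory factor, and mESCs grown in it are heterogeneous and express some genes of later, primed pluripotency. 2i medium blocks the kinases MEK and GSK3, which holds cells in a more uniform ground state, and 2i cultures are known for a longer G1 phase. mESCs have a short G1 phase and spend most of their cycle in S phase. An S score and a G2M score summarise genes for DNA replication and for mitosis in each cell and have no unit, and how the deposited ones were made is not given in the sources used here. The phase call followed from them in 4147 of 4147 cells: a cell with both scores below 0 was called G1, and any other cell received the phase of its larger score. The mitochondrial percentage, the share of the reads of a cell that come from the mitochondrial genome, is read both as a sign of cell quality and as a trait of the metabolism of a cell. These tables hold values per cell and no values per gene, so the state names could not be checked against marker genes and doublets could not be called.

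The libraries were unequally deep, and this touches each result below. The plates of condition 1 received 17168972 and 19483881 reads, those of condition 5 received 33416237 and 30832460, and those of condition 6 received 29120775 and 8696308. Median counts per cell were 6845 and 7873.5 in condition 1, 12660 and 11872 in condition 5, and 13669 and 7640 in condition 6. The second plate of condition 6 stood apart: it held 307 cells against 346 to 365 on the other 5 plates, and gave 27.9 counts per 100 reads against 14.2 to 16.4. Its median counts lay between those of the condition 1 plates, which makes it the pulsed plate closest to them in counts per cell, though not in reads. The condition medians were 7216.5, 12280.5 and 9959 counts for conditions 1, 5 and 6, and the plates of condition 1 and of the pulsed conditions overlapped. Without the first plate of condition 6, the excess of condition 6 over condition 1 was 423.5 counts, and without the second plate it was 6452.5 counts. The difference in counts between the plates of condition 6 exceeded any difference between condition medians.

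**Figure D1:**
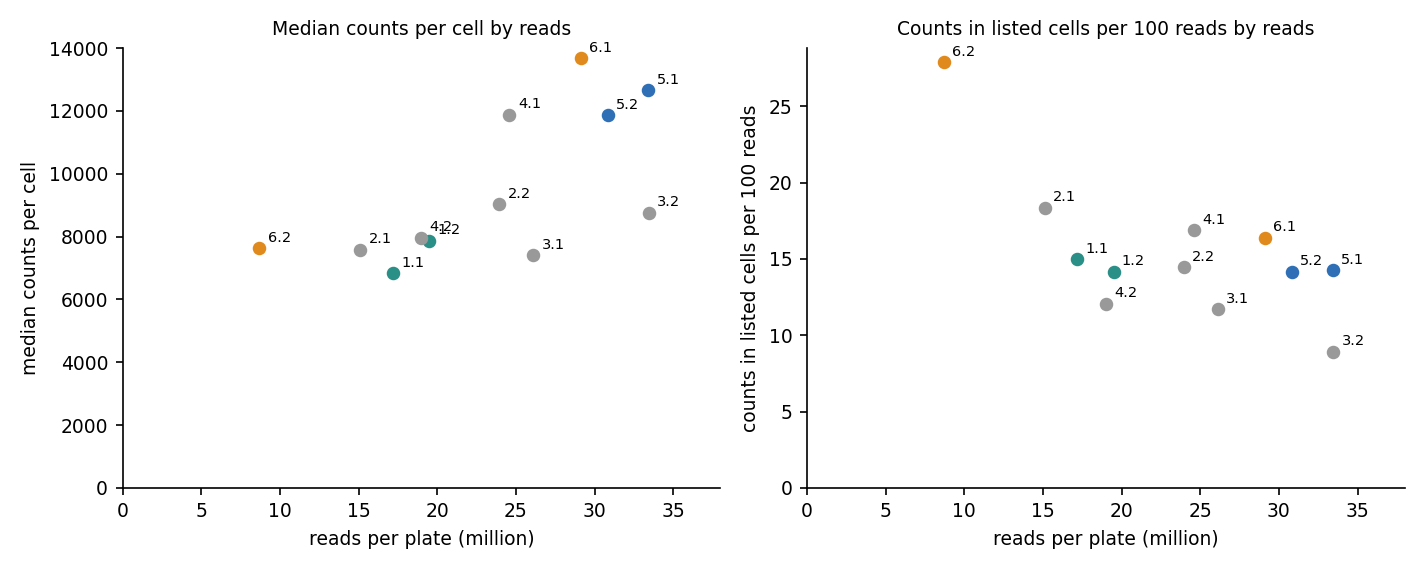
Median counts per cell (left) and counts in the listed cells per 100 reads (right) against the number of reads of each plate. Each point is 1 of 12 mESC plates, named as condition and technical replicate, in green for condition 1, blue for condition 5, orange for condition 6 and grey for the 2i conditions. Plate 6.2 had the fewest reads, 8696308, and the most counts per 100 reads, 27.9.

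The number of genes per cell followed the counts. The plate medians were 3449 and 3658 genes in condition 1, 4980 and 4779 in condition 5, and 5123 and 3675 in condition 6. The ranges of condition 1 and of the pulsed plates were 17 genes apart, far less than the 1448 genes between the plates of condition 6. Once genes were set against counts by a common fit over the 6 plates, the plates of condition 1 differed from it by -0.119% and -2.29%, those of condition 5 by 1.84% and 1.10%, and those of condition 6 by 0.445% and -0.187%. At a given depth, the 6 plates thus differed by only a few percent in genes per cell. Within 3 equal classes of counts, with bounds at 7228 and 12355 counts, the order of the conditions was not the same. Conditions 1, 5 and 6 had medians of 2619, 2195 and 2522 genes in the low class, 4103, 4512 and 4247 in the middle class, and 5147, 5656.5 and 5593 in the high class, where median counts within a class also differed, from 3401 in condition 5 to 4341.5 in condition 1 in the low class.

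More pulsed cells were called S phase. On the plates of condition 1, 43.2% and 42.5% of the cells were called S phase, against 56.7% and 54.6% in condition 5 and 51.0% and 55.7% in condition 6. All 4 pulsed plates lay above both plates of condition 1, and the 7.79 points between the ranges compare with at most 4.73 points between plates of 1 condition. Over both plates the share was 42.8% in condition 1 (299 of 698, 95% Wilson interval 39.2 to 46.5%), 55.7% in condition 5 (402 of 722, 52.0 to 59.3%) and 53.2% in condition 6 (354 of 666, 49.4 to 56.9%). Condition 5 exceeded condition 1 by 12.8 percentage points (95% Newcombe interval 7.65 to 17.9) and condition 6 did so by 10.3 points (5.01 to 15.5). These intervals cover counting error only. The plates of conditions 5 and 6 overlapped. On the second plate of condition 6, like condition 1 in median counts but not in reads, the share was 55.7%. The part of depth in the difference cannot be told from this 1 plate.

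Almost no cell was called G1, so the difference in S phase calls was mirrored in G2M calls. A G1 call needs both scores below 0, and the 10th percentile of the S score was above 0 on every mESC plate. The S and G2M calls can therefore hold cells in G1, and the G1 shares below do not measure the length of G1. G2M calls made up 56.0% and 57.5% of the cells on the plates of condition 1, 42.7% and 44.8% in condition 5, and 47.9% and 43.6% in condition 6. Only 3, 4 and 6 cells were called G1 in conditions 1, 5 and 6, or 0.430%, 0.554% and 0.901%. The 2i plates held 1.10 to 2.48% G1 cells, and 1 pulsed plate, the first of condition 6 with 1.11% (4 of 359 cells), reached that range. In S phase share, the 2i plates lay between 46.8% and 54.8%, above both plates of condition 1. Of the pulsed plates, those with 56.7% and 55.7% lay above the 2i range and those with 54.6% and 51.0% within it.

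**Figure D2:**
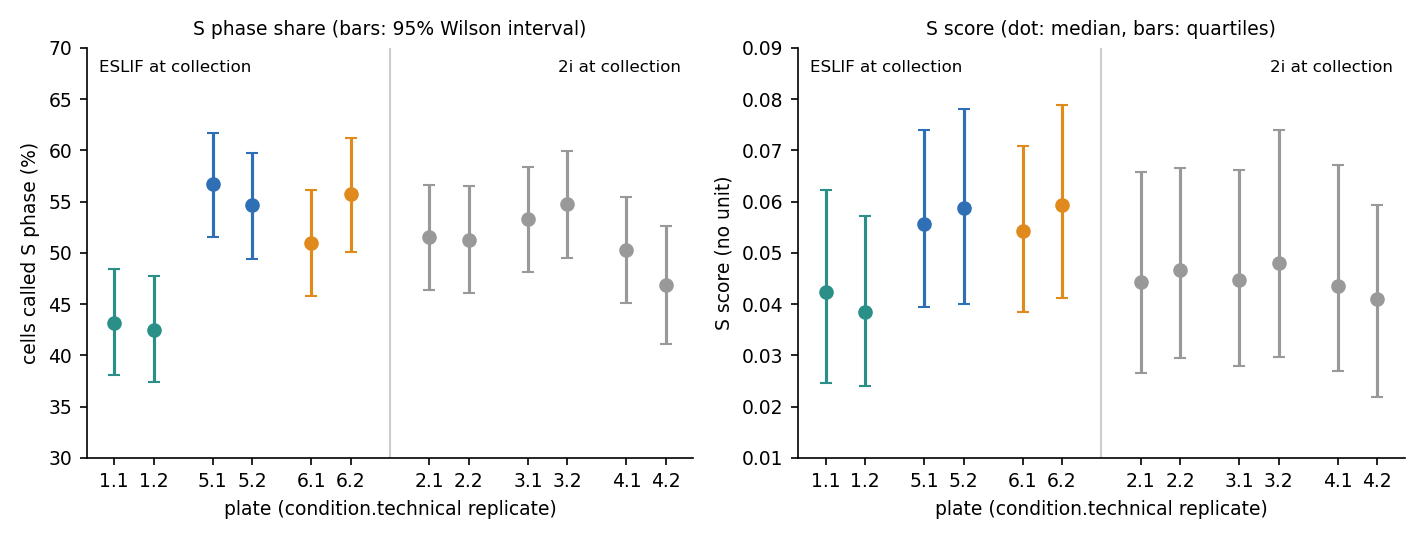
Share of cells called S phase in percent with its 95% Wilson interval (left), and S score with the median as a dot and the quartiles as bars (right), for each of the 12 mESC plates, named as condition and technical replicate. Plates in ESLIF at collection stand left of the line and plates in 2i stand right of it. The pulsed plates (5.1 to 6.2) lie at 51.0 to 56.7% and the plates of condition 1 at 42.5 to 43.2%, and the pulsed plates have the highest median S scores of all plates.

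Behind these calls, the S score was higher across the whole population of pulsed cells. The plate medians were 0.0424 and 0.0385 in condition 1, 0.0557 and 0.0588 in condition 5, and 0.0543 and 0.0593 in condition 6. The 4 pulsed plates lay above the plates of condition 1 and also above the medians of the 2i plates, 0.0411 to 0.0479. The difference from condition 1 was 0.0172 in condition 5 and 0.0151 in condition 6, against at most 0.00509 between plates of 1 condition. At the 10th percentile of cells the scores were 0.0132, 0.0280 and 0.0250 for conditions 1, 5 and 6, and at the 90th percentile it was 0.0760, 0.0885 and 0.0879. At the 10th, 25th, 50th, 75th and 90th percentiles, the plates of condition 1 and the pulsed plates did not overlap.

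Over all cells, the G2M score differed less between conditions than the S score. Its plate medians were 0.0529 and 0.0482 in condition 1, 0.0443 and 0.0477 in condition 5, and 0.0485 and 0.0437 in condition 6, and the plates of condition 1 and condition 6 overlapped. The condition medians differed by -0.00423 (condition 5 minus condition 1) and -0.00477 (condition 6 minus condition 1), while the plates of condition 1 were 0.00464 apart. Within classes of counts it differed more: in the low, middle and high classes (bounds at 7228 and 12355 counts), the medians were 0.0411, 0.0510 and 0.0844 in condition 1, 0.0391, 0.0355 and 0.0608 in condition 5, and 0.0366, 0.0461 and 0.0616 in condition 6. As a mean over the classes, the differences from condition 1 were -0.0137 and -0.0107. The classes took unlike parts of each condition, with 98 of 698 cells of condition 1 in the high class against 352 of 722 and 245 of 666 pulsed cells. Cells called G2M also had more counts, and the part of this selection in the larger differences was not tested. By plate, condition 1 and the pulsed plates overlapped in the low and middle classes, and in the high class the second plate of condition 6, with 0.0802, came close to the second plate of condition 1, with 0.0807. Among the cells with the highest scores, the 90th percentiles were 0.104, 0.103 and 0.104 in conditions 1, 5 and 6. Both plates of condition 1 lay above the range of the 2i plates, 0.0380 to 0.0455, and the pulsed plates lay in its upper part or above it.

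**Figure D3:**
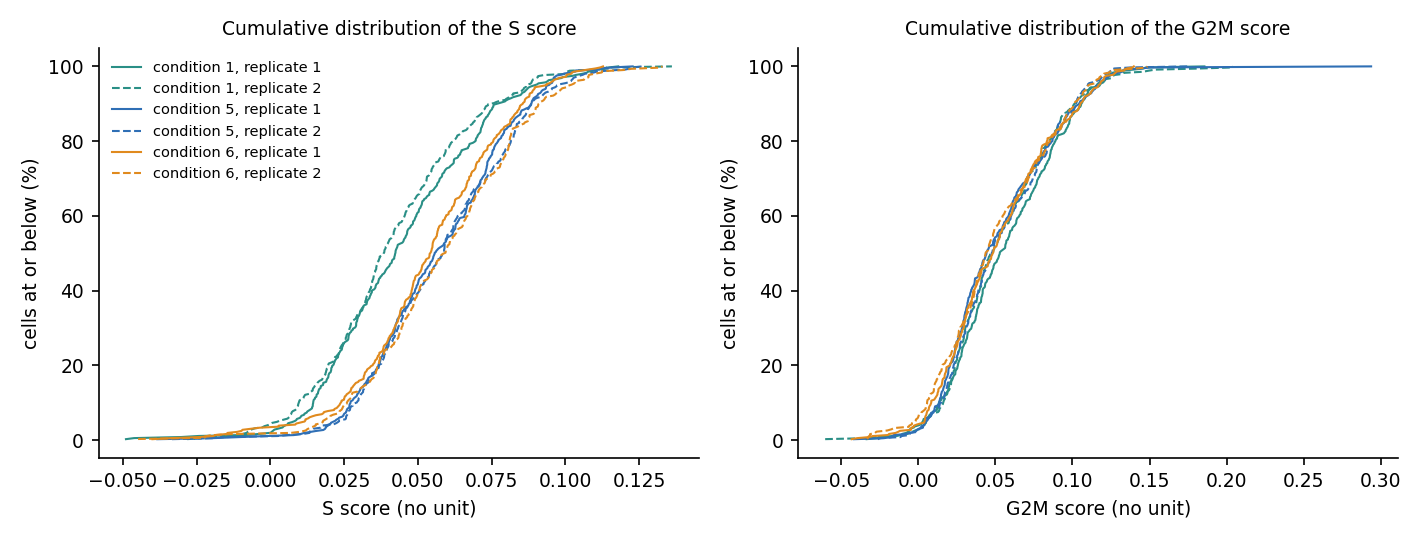
Cumulative distributions of the S score (left) and the G2M score (right), which have no unit, over the cells of each plate, as the percent of cells at or below a score. Solid lines are technical replicate 1 and dashed lines replicate 2 of conditions 1 (green), 5 (blue) and 6 (orange). The S score curves of the pulsed plates lie to the right of those of condition 1 over most of the range, by 0.0172 and 0.0151 at the median of conditions 5 and 6, while the G2M score curves of all 6 plates lie closer to each other.

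The S score was higher both in pulsed cells called S and in pulsed cells called G2M. Among cells called S, the plate medians were 0.0653 and 0.0594 in condition 1, 0.0726 and 0.0751 in condition 5, and 0.0697 and 0.0761 in condition 6. Among cells called G2M, they were 0.0274 and 0.0273, then 0.0386 and 0.0402, then 0.0420 and 0.0412. In cells with a G2M score over 0.08, which express the mitotic genes most strongly, the S score was still 0.0266 in condition 1 against 0.0422 in condition 5 and 0.0419 in condition 6, with 75 to 99 such cells per plate. A call by the larger of both scores depends on such a shared offset. When the S scores of the 3 conditions were levelled in these cells of high G2M score, an alternative chosen after seeing the data, the S phase shares were 42.8%, 45.6% and 45.3% in conditions 1, 5 and 6, and the differences dropped to 2.73 and 2.51 points. The levelling took this offset from every pulsed cell. The offset was about as large as the differences in median S score over all cells, 0.0172 and 0.0151. A drop was thus built into the step, and its size cannot show how much of the difference is an offset. The share of cells near the phase cut, with scores less than 0.01 apart, was 10.0%, 12.3% and 12.6%. A larger share of cells in S phase and a higher level of replication genes at every phase cannot be told apart by these calls.

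Depth was related to the phase calls within each plate. Cells called G2M had 1.19 to 1.29 times the median counts of cells called S on the 6 ESLIF plates, and 1.13 to 1.32 times on the 2i plates. The phase shares were therefore also compared within the classes of counts. In the low class, 50.3%, 62.4% and 58.5% of the cells of conditions 1, 5 and 6 were called S, in the middle class 42.8%, 69.2% and 57.3%, and in the high class 16.3%, 43.8% and 44.9%. Averaged over the classes, condition 5 lay 22.0 points and condition 6 lay 17.1 points above condition 1. By plate, the ranges overlapped in the low class, where the first plate of condition 6 had 49.4% and the first plate of condition 1 had 52.3%. In the middle and high classes every pulsed plate lay above both plates of condition 1. The high class of condition 1 is thin, with 33 and 65 cells per plate. It held 98 of 698 cells of condition 1 but 352 of 722 cells of condition 5 and 245 of 666 cells of condition 6. The deepest cells of condition 1, where G2M calls are more frequent, were thus set against a larger part of the pulsed cells. How much this selection adds to the wider gaps was not tested.

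Pulsed cells had a lower mitochondrial percentage. The plate medians were 6.51% and 7.99% in condition 1, 4.50% and 4.86% in condition 5, and 4.93% and 5.43% in condition 6. Every pulsed plate lay below both plates of condition 1, but the 1.08 points between these ranges were fewer than the 1.48 points between the plates of condition 1 themselves. The condition medians were 7.27%, 4.67% and 5.17%, a difference from condition 1 of -2.60 points in condition 5 and -2.10 points in condition 6. Conditions 5 and 6 did not overlap either, with condition 5 the lower, though only 0.0729 points separated their nearest plates. On the 2i plates the medians ran from 5.14 to 6.69%, so that 3 of the 4 pulsed plates lay below all of them, while the second plate of condition 1 lay above all of them.

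The lower percentage held within the classes of counts, in each phase and across the distribution. In the low, middle and high classes of counts, the medians were 7.69%, 7.22% and 6.76% in condition 1, 5.01%, 4.82% and 4.47% in condition 5, and 5.38%, 5.40% and 4.89% in condition 6. No pulsed plate reached a plate of condition 1 in any class. Among cells called S the medians were 7.54%, 4.74% and 5.28% in conditions 1, 5 and 6, and among cells called G2M they were 7.18%, 4.54% and 5.04%. At the 10th percentile the values were 4.60%, 3.37% and 3.35%, and at the 90th percentile they were 9.94%, 6.13% and 6.97%. On the second plate of condition 6, like condition 1 in median counts but not in reads, the median was 5.43%.

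Cells with a high mitochondrial percentage were most frequent on 1 plate. Values over 10% were found in 66 cells of condition 1 (9.46%, Wilson interval 7.50 to 11.9%), 19 cells of condition 5 (2.63%) and 12 of the 666 cells of condition 6. In condition 1, however, the plates had 4.83% and 14.2% of such cells, while the pulsed plates had 0.977 to 3.08% and the 2i plates 1.41 to 3.03%. The second plate of condition 1 also had the highest share of cells under 1000 counts among the ESLIF plates, 6.65%, against 1.70% on the first plate and 2.80 to 5.54% on the pulsed plates. Without this plate, the difference from condition 1 was -1.85 points in condition 5 and -1.34 points in condition 6. The part of cell quality in the difference was not tested.

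**Figure D4:**
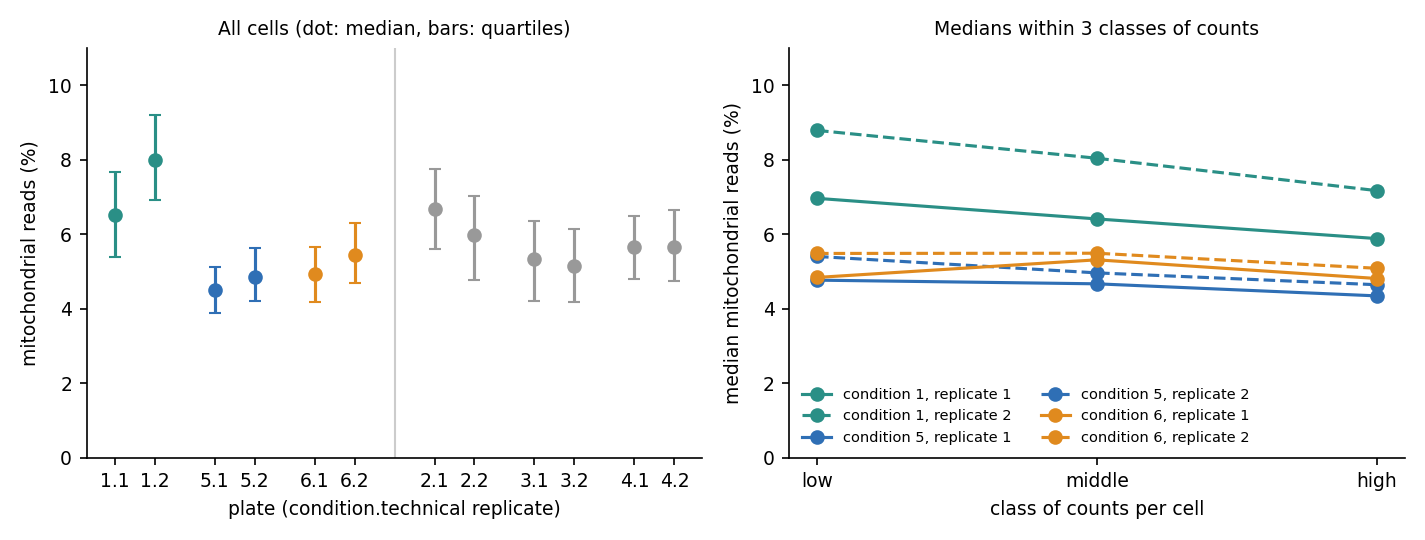
Mitochondrial reads as a percent of all reads of a cell, for the 12 mESC plates with the median as a dot and quartiles as bars (left, plates named as condition and technical replicate, 2i plates in grey), and the medians of the 6 ESLIF plates within the low, middle and high class of counts per cell (right). The pulsed plates have medians of 4.50 to 5.43% and lie below both plates of condition 1, at 6.51 and 7.99%, also within each class.

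The annotated cell states separated the cultures almost completely. The states are the authors' clusters of these same cells, so the split is a description and not a test. Ectoderm Priming, which the deposited table names after Sonic hedgehog signalling, a pathway that patterns the neural tube, held 90.6% and 93.6% of the cells on the plates of condition 1, 0.274% and 1.40% in condition 5, and 0.557% and 1.95% in condition 6. Primed Pluripotency, the state in which cells approach lineage commitment, held 7.39% and 3.47% on the plates of condition 1, 98.4% and 96.6% in condition 5, and 96.1% on each plate of condition 6. The difference between condition 1 and the pulsed conditions was at least 88.7 points with any 1 plate left out, against at most 3.92 points between plates of 1 condition. The split held in both phases. In condition 1, Ectoderm Priming took 93.3% of the cells called S and 91.9% of those called G2M, and Primed Pluripotency took 97.5% and 98.1% in condition 5 and 97.2% and 96.4% in condition 6.

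Few cells crossed between these states, and those of condition 1 had lower counts than its Ectoderm Priming cells, most clearly on its second plate. The 38 cells of condition 1 in Primed Pluripotency (5.44%, Wilson interval 3.99 to 7.38%) had a median of 3912 counts, against 7447 for its cells in Ectoderm Priming. They made up 11.7% of its cells under 5000 counts (24 of 206, 7.96 to 16.7%) and 2.85% of its deeper cells (14 of 492, 1.70 to 4.72%). The 26 on the first plate had a median of 4946 counts, above the lower quartile of that plate, 4800. The 12 on the second plate had a median of 1211.5, below its lower quartile of 3283.75. In the other direction, 6 cells of condition 5 (0.831%) and 8 cells of condition 6 (1.20%, 0.610 to 2.35%) were in Ectoderm Priming, with medians of 12853 and 1868 counts. Of the 6 cells of condition 5, 5 had at least 5000 counts and 1 had fewer. Among cells of at least 5000 counts, a limit chosen after seeing the data, the shares in Ectoderm Priming were 95.3%, 0.775% and 0.576% in conditions 1, 5 and 6.

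Positions on the deposited UMAP set condition 1 apart from the pulsed cells, while conditions 5 and 6 were partly mixed. The authors had regressed out counts, mitochondrial percentage and phase before they built it. Among the 15 nearest of the 2086 ESLIF cells, cells of condition 1 had 91.2% neighbours of their own condition, 3.11% of condition 5 and 5.70% of condition 6. Cells of condition 5 had 2.85% neighbours of condition 1, 72.8% of their own and 24.3% of condition 6. For cells of condition 6 these shares were 5.17%, 69.4% of their own and 25.4% of condition 5, where complete mixing would give 31.9 to 34.6% for each condition. The plates of condition 6 were unlike in this mixing. Its first plate had 16.6% and 18.3% of its neighbours on the plates of condition 5, where complete mixing would give 17.5% and 17.1%. Its second plate had only 5.49% and 8.86% there. Of the pulsed conditions, condition 6 had the larger share of neighbours in condition 1.

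Neighbours across the border between condition 1 and the pulsed cells were most frequent on 1 plate of either side. The second plate of condition 6, the one with the fewest reads, had 4.47% and 2.17% of its neighbours on the plates of condition 1, against 2.73% and 1.17% for the first plate. The first plate of condition 1 had 4.72% of its neighbours on the second plate of condition 6, and the second plate of condition 1 had 2.27%. Within condition 6, only 18.2% of the neighbours of the first plate lay on the second, and 21.5% the other way, while the plates of condition 5 exchanged 33.4% and 34.6% and those of condition 1 exchanged 34.4% and 34.7%. Without the first plate of condition 1, the share of condition 1 neighbours was 1.25% in condition 5 and 2.13% in condition 6. Without the second plate of condition 1, these shares were 2.23% and 4.07%. In condition 6 the share was 8.69% without its own first plate and 5.48% without its second. The share of pulsed neighbours in condition 1 was 8.82% over both of its plates, 8.32% without its first and 14.2% without its second plate. A plate left out also removes possible neighbours, which changes the share under complete mixing. The values with a plate left out therefore do not compare directly with those over all plates.

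Distances between plate medians on the UMAP showed the same unequal spread, in units of the map that compare only within it. The plates of condition 1 were 1.30 apart, those of condition 5 were 0.688 apart and those of condition 6 were 2.83 apart. Plates of conditions 1 and 5 were 4.23 to 5.30 apart, plates of conditions 1 and 6 were 2.86 to 3.95 apart, and plates of conditions 5 and 6 were 1.85 to 2.71 apart. The plate medians of condition 6 were therefore about as far from each other as its nearest plate was from condition 1. Its plates also differed in cluster shares. Of their Primed Pluripotency cells, the smaller of the authors' clusters held 49.9% on the first plate and 23.7% on the second. Median positions on the horizontal and vertical axes were 8.87 and 9.18 against 7.69 and 10.6 in the larger cluster. In the smaller cluster they were 10.1 and 6.77 against 9.26 and 6.76. The 2.83 is thus not a shift of like cells alone. All pulsed plates were at least 6.10 from any 2i plate, and the plates of condition 1 were at least 5.14 from them. The median distance of a cell from the centre of its own plate was 1.21 to 1.57, with the first plate of condition 6 the most dispersed.

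**Figure D5:**
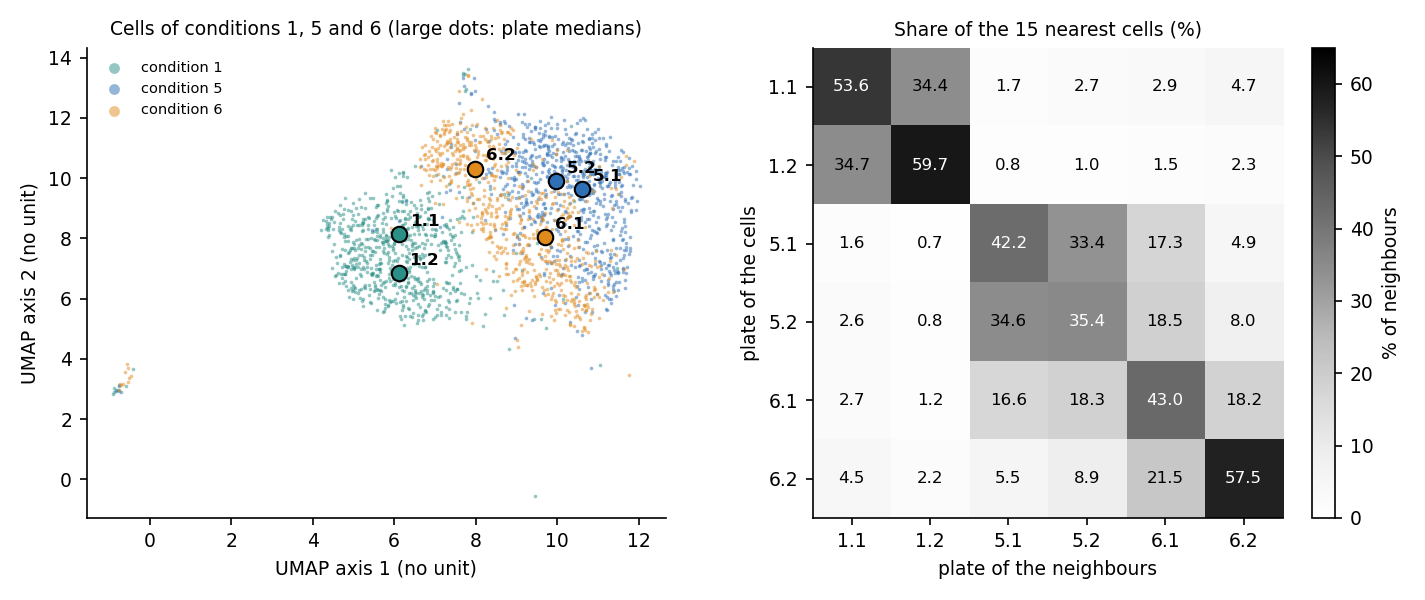
Cells of conditions 1 (green), 5 (blue) and 6 (orange) on the deposited UMAP, whose axes have no unit, with large dots at the median position of each plate (left), and the percent of the 15 nearest ESLIF cells that came from each plate (right, rows are the plates of the cells and columns the plates of their neighbours). Plates are named as condition and technical replicate. The plates of condition 6 lie apart, with 18.2% and 21.5% of neighbours exchanged, and the plates of condition 1 share few neighbours with any pulsed plate, 4.72% at most in their own rows.

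Single cells on the far side of this border were rare. In condition 1, 58 cells (8.31%, Wilson interval 6.48 to 10.6%) had mostly pulsed neighbours, with a median of 4946 counts. Such cells were 10.8% of the first plate and 5.78% of the second. In conditions 5 and 6, 8 cells (1.11%, 0.563 to 2.17%) and 11 cells (1.65%, 0.925 to 2.93%) had mostly neighbours of condition 1, with a median of 14407 counts in condition 5, above that of its median cell. Of the 11 cells of condition 6, 8 lay on its second plate with a median of 5552.5 counts, above the lower quartile of that plate, 5257, and the 3 on its first plate had a median of 1093 counts.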

How the data were processed

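Medium, sorting and CEL-seq2 steps follow the labels and the study's methods. Per the labels and methods, the authors trimmed reads with cutadapt 4.1, mapped them with STAR 2.5.3a to GRCm38 with strain differences masked, and removed duplicates. Counts and genes per cell were deposited as whole-number counts, not normalized, mitochondrial reads as a fraction (here in percent), and the S and G2M scores by the authors as a score without a unit. The authors left mitochondrial, ribosomal and Malat1 reads out of their further analysis. Whether the deposited counts were taken before or after this step is not given in the sources used here. The state names follow the study where the deposited table uses an older name (matched by cell numbers). The sequencing report lists 3 libraries with no matching sample, left out here. The table held 0 duplicated cells, 234 of the 384 wells were listed on all 6 plates, which share 1 barcode set, and 10 ESLIF cells had under 500 counts. The authors had already dropped mESCs with fewer than 500 reads, too few genes detected or over 40% mitochondrial reads. No further cell was removed here.

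Medians, shares with 95% intervals (statsmodels 0.14.6) and neighbours (scikit-learn 1.9.0) were computed per plate and condition with pandas 2.3.3, and the scripts were tested on simulated data. Alternatives were minima of 1000 and 5000 counts, a maximum of 20% mitochondrial reads, states or single plates left out, classes of counts, means, clear phase calls, 5 or 50 neighbours, levelled S scores and a quadratic gene fit. The minimum of 5000 counts, the levelled scores and the quadratic fit were chosen after seeing the data. The conditions, measures and lists were chosen with earlier results of these data known. No gene is named with a value.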

Additional observations from a re-analysis of the deposited data

How the results depend on the processing

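Of 189 alternative values for 19 differences and neighbour shares, 155 stayed within a set limit, 34 moved further and 0 changed sign. Neighbour shares cannot be negative, so the count of sign changes has meaning only for the differences. The limit was the 95% counting interval of the difference for phase and state shares, and the spread between plates for the other measures. No paired analysis was possible because the results come from no test and the technical replicate numbers only name plates of separate cultures. Differences are given as pulsed minus condition 1, for condition 5 and then condition 6. With 1 plate left out, the S phase share ranged from 11.8 to 13.9 and from 8.14 to 12.9 points, the S score from 0.0151 to 0.0190 and from 0.0131 to 0.0190, and the G2M score from -0.00666 to -0.00153 and from -0.00722 to -0.00208. Counts ranged from 4407 to 5443.5 and from 423.5 to 6452.5, genes from 1227 to 1454.5 and from 123 to 1571, and the mitochondrial percentage from -3.32 to -1.85 and from -2.82 to -1.34 points. Ectoderm Priming ranged from -92.8 to -89.8 and from -92.4 to -89.4 points, and Primed Pluripotency from 90.1 to 94.0 and from 88.7 to 92.6 points. The share of neighbours across the border ranged from 7.11 to 14.2% in condition 1, from 1.25 to 4.20% in condition 5 and from 2.13 to 8.69% in condition 6. For these shares, a plate left out also removes possible neighbours, which changes the share under complete mixing. As a mean over the classes of counts, the S phase difference was 22.0 and 17.1 points, the G2M score -0.0137 and -0.0107, genes 164.8 and 164.3, and Ectoderm Priming -93.1 and -92.8 points. The S phase difference was 26.6 and 25.6 points over the 800 cells with clear calls (scores at least 0.05 apart). This margin uses the scores that make the calls, so the higher S scores of pulsed cells also affect which cells pass. The part of this selection in the wider difference was not tested. With levelled S scores, where a drop was built into the step, the S phase difference was 2.73 and 2.51 points. Ectoderm Priming was -93.3 and -92.9 points without the outlier states and -94.6 and -94.7 at 5000 counts or more, where Primed Pluripotency was 95.1 and 94.9, and 92.7 in condition 6 without the outlier states. The cause of these moves was not tested. Each condition was 1 culture, so culture error is unknown. Depth, library and condition cannot be told apart, and the classes of counts do not fully match the conditions in depth.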

Other observations

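Primed Pluripotency joins a larger and a smaller Leiden cluster, and in the pulsed cells the smaller one was drawn from both ends of the range of depth. Of the Primed Pluripotency cells of condition 5, the smaller cluster held 43.1% in the low class of counts, 5.62% in the middle class and 30.6% in the high class. In condition 6 these shares were 38.6%, 13.9% and 55.9%. The middle class had the lowest share on all 4 pulsed plates, at 5.83% and 5.43% in condition 5 and 11.3% and 15.2% in condition 6. The median counts of its cells were 17877.5 and 14174 on the plates of condition 5, above the 12324 and 11754 of the larger cluster. On the plates of condition 6 they were 16967.5 and 6506.5, against 12135 and 7887, so that the second plate went the other way. The 15 such cells of condition 1 had a median of 1217 counts. The mitochondrial percentage was close in both clusters, with medians of 4.60% in the smaller and 4.69% in the larger cluster of condition 5, and 4.99% and 5.31% in condition 6. In condition 5, 47.3% of the smaller and 58.3% of the larger cluster were called S, and in condition 6 54.5% and 53.3%. The authors had regressed out counts before clustering, and the part of depth in this split was not tested.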
